A study of Xenopus laevis with 46 samples.

Results

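The comparison described here was between Wnt/Chrd-injected and uninjected animal pole explants of Xenopus laevis that were both kept in IBET and collected at stage 13, the early neurula. It was chosen by label alone and held 6 of the 46 libraries of the series, 3 Wnt/Chrd and 3 uninjected. The question was which effects of Wnt8a and Chordin on the transcriptome were still measured when BET proteins were inhibited in both kinds of explant. Every gene in the count tables (49281) was eligible and 20975 had enough reads to be tested.

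An animal pole explant is the roof of the blastula, cut out and cultured on its own. The Wnt/Chrd explants came from embryos injected early with mRNA for Wnt8a and the BMP antagonist Chordin. The study uses this mixture to reprogram the cells to neural crest, and describes uninjected explants as becoming epidermis. IBET, a small molecule that blocks the bromodomains of BET proteins, was present from stage 9, the late blastula, in all 6 libraries. The matched stage 13 vehicle groups, Wnt/Chrd (3 libraries) and uninjected (3 libraries), were kept in DMSO from stage 9. Further groups were used for time: Wnt/Chrd and uninjected explants at stage 17 in IBET from stage 9, and Wnt/Chrd and uninjected explants at stage 9 before treatment (3 libraries in each of the 4 groups). All embryos were wild type apart from the injected mRNA, and no group received Wnt8a or Chordin alone. Nothing in the labels ties a library to a clutch of its own, and p-values therefore measure the spread between these libraries, which may be partly technical.

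Wnt ligands bind Frizzled and LRP receptors, stabilise beta-catenin and switch on target genes through Tcf/Lef factors, among them inhibitors of the pathway itself such as axin2. BMP ligands act through Smad proteins to drive ectoderm to epidermis, and Chordin binds BMP ligands outside the cell so that ectoderm turns to neural tissue. Together, a Wnt signal and a lowered BMP signal place ectoderm at the neural plate border, where pax3, zic1, msx1 and tfap2 genes come on before the neural crest genes snai2, foxd3 and sox10. BET proteins bind acetylated histones and recruit factors that release paused RNA polymerase. Xenopus laevis carries most genes as a pair of homeologous copies, written .L and .S, whose near-identical reads can be shared between copies by the counting.

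The 6 IBET libraries held 17261470 to 22819619 reads assigned to genes, 58.9% to 67.4% of the reads counted, and the 6 vehicle libraries 18841725 to 25933621 (71.8% to 75.4%). Levels are CPM, the usual depth-scaled read counts, with library sizes scaled by TMM over the 12 stage 13 libraries. The count columns carry a letter, a, b or c, and libraries of one letter deviated together, so each comparison was also fitted with the letter as a block, in effect comparing Wnt/Chrd with uninjected explants within a letter. With IBET, the markers krt12.4.L, foxd3.S and snai2.L were low in the explants whose fate without IBET they mark. The study also reports these genes as downregulated by IBET. The epidermal keratin krt12.4.L had 0.17, 0.36 and 0.58 CPM in the uninjected IBET explants, against 4334, 1829 and 1492 CPM in the uninjected vehicle explants. The crest specifier foxd3.S had 0.10, 0.43 and 0.35 CPM in the Wnt/Chrd IBET explants, and snai2.L had 0.86, 0.43 and 0.40 CPM. Over the 3 Wnt/Chrd vehicle libraries foxd3.S summed to 608 counts, and snai2.S, the other copy of snai2, to only 7. Neither IBET group thus held more than 0.86 CPM of these markers of its fate without IBET. Such levels alone cannot show that a fate is absent, and the groups are named by treatment only. Other crest genes were mixed. snai1.S had 253, 52.8 and 88.2 CPM in Wnt/Chrd IBET explants, against 10.7, 6.25 and 23.3 CPM in uninjected IBET explants. Of 23 crest genes tested with IBET, 2 were called higher and 2 lower with the letter as a block. Of all 20975 genes tested, 0.625% were called higher and 0.11% lower in that fit. Of the vehicle groups, Wnt/Chrd library a stood apart with 1395 CPM of krt12.4.L (53.2 and 4.55 CPM in libraries b and c), and the vehicle results that it moved are also given without it, an alternative chosen for the gene lists after seeing the data.

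With IBET, 13 genes were called higher in Wnt/Chrd explants and none lower (edgeR quasi-likelihood test, Benjamini-Hochberg adjusted p under 0.05), 0.062% of the 20975 tested. The genes were the injected chrd.1.S and wnt8a.L, the Wnt targets and feedback genes sp5.S, sp5l.L, sp5l.S, axin2.S, kremen2.L and fzd10.L, the BMP antagonist nog.S, and the posterior and neural transcription factors hoxd1.L, hoxd1.S, irx3.L and irx3.S. For all 13, each of the 3 Wnt/Chrd libraries was above each of the 3 uninjected libraries. Groups did not overlap for 1029 tested genes (4.91%), so non-overlap alone was common. At an unadjusted p under 0.05, 318 genes were higher and 118 lower. DESeq2 called 105 higher and 17 lower. With the letter as a block, 131 genes were called higher and 23 lower (0.734% of genes tested), including all 13, and 126 of these 154 did not overlap between the groups. The unblocked count rested on every library: it was 10, 2 and 8 genes without Wnt/Chrd library a, b or c, and 3, 2 and 3 genes without uninjected library a, b or c, with chrd.1.S and sp5l.L called each time.

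**Figure D1:**
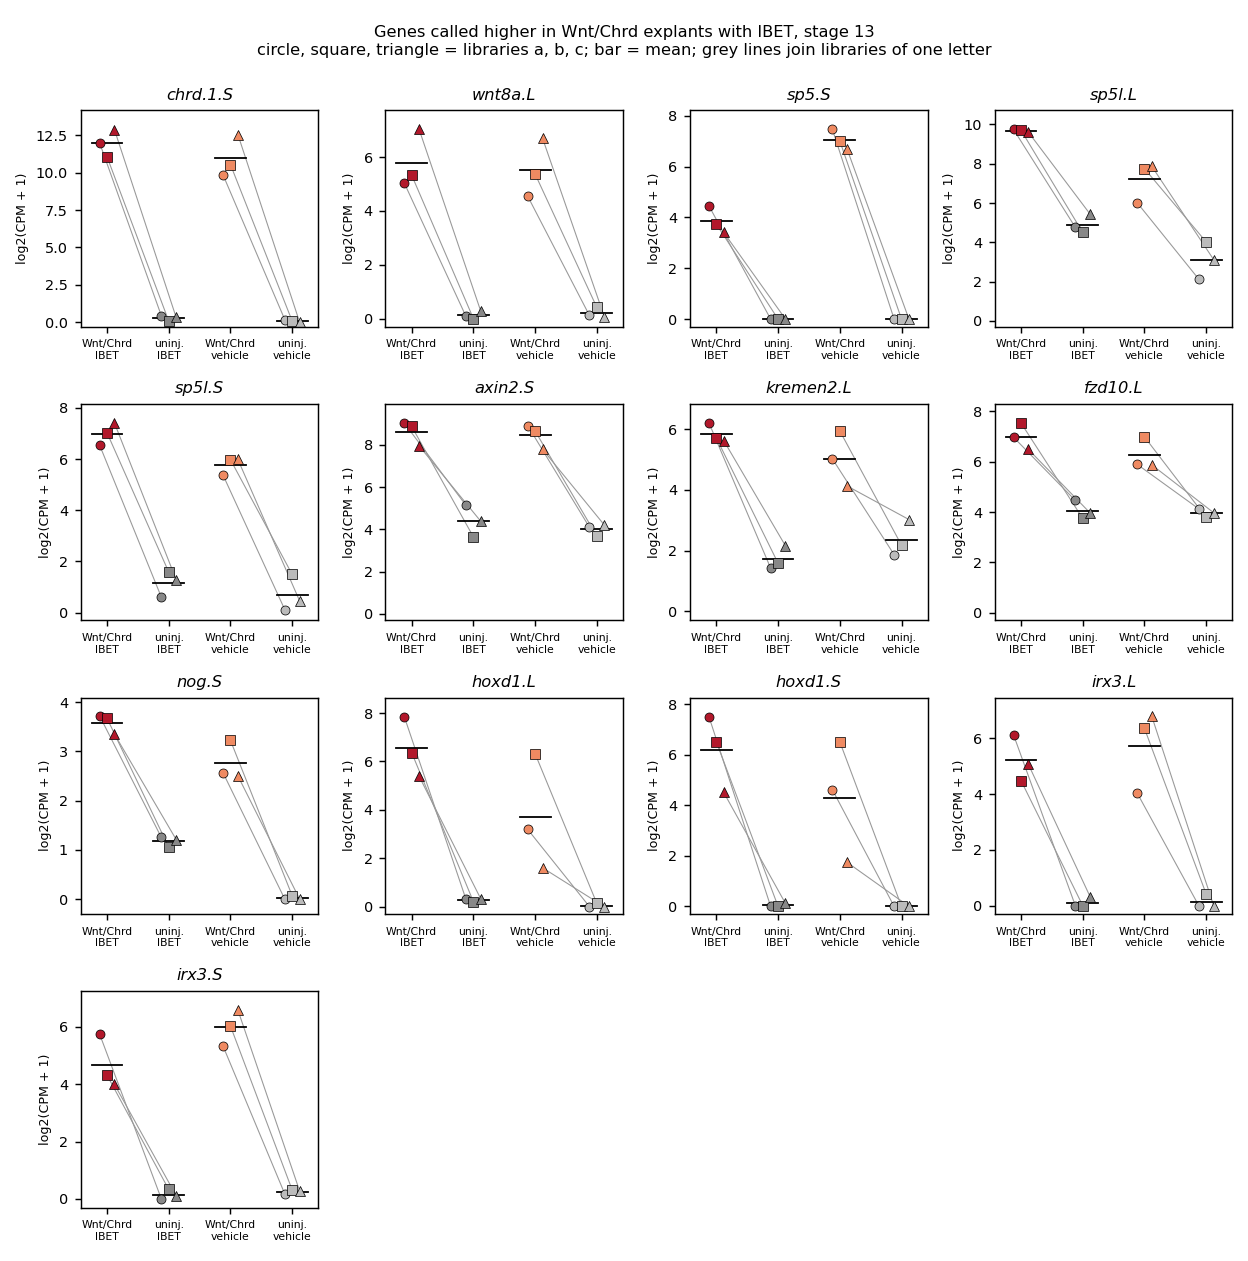
Levels of the 13 genes called higher with IBET, as log2(CPM + 1) on the vertical axis, in Wnt/Chrd IBET, uninjected IBET, Wnt/Chrd vehicle and uninjected vehicle explants at stage 13 (3 libraries each, bar = mean). In every panel the 3 Wnt/Chrd IBET points lie above the 3 uninjected IBET points, from nog.S at 9.21 to 12 CPM against 1.07 to 1.39 CPM to chrd.1.S at 2131 to 7510 CPM against 0.05 to 0.35 CPM.

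With vehicle, the same contrast called 910 genes higher (4.4%) and 1569 lower (7.58%) of 20691 tested (12% of genes), and 1159 higher and 2865 lower without the Wnt/Chrd vehicle library a. The count was 1083 and 1138 genes without Wnt/Chrd library b or c, and 902, 1619 and 737 without uninjected library a, b or c. With the letter as a block it was 2177 higher (10.5% of genes tested) and 3035 lower (14.7%). All 13 genes called with IBET were also called higher with vehicle, which is 100% of the IBET calls and 1.43% of the vehicle calls in that direction. Of the 131 genes higher with IBET in the blocked fit, 90 (68.7%) were also called higher with vehicle in the blocked fit, and of the 23 lower, 15 (65.2%) were called lower. Without the Wnt/Chrd vehicle library a these were 98 (74.8%) and 16 (69.6%). The IBET and vehicle comparisons share no library. They carry the same letters, however, and the labels do not say whether explants of one letter came from the same embryos, so they may not be independent.

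The injected mRNAs were present in every Wnt/Chrd library. The chordin gene chrd.1.S had 4054, 2131 and 7510 CPM in Wnt/Chrd IBET libraries a, b and c, against 0.35, 0.05 and 0.25 CPM in uninjected IBET libraries (log2 fold change 14.36 ± 0.85, SE, adjusted p = 0.0022). The ligand gene wnt8a.L had 31.8, 39.1 and 130 CPM, against 0.06, 0 and 0.21 CPM (9.38 ± 1.01, adjusted p = 0.031). Reads from injected and endogenous transcripts cannot be told apart. The Wnt/Chrd vehicle libraries held 915 to 5959 CPM of chrd.1.S and 22.3 to 103 CPM of wnt8a.L, overlapping the Wnt/Chrd IBET libraries, and the difference of the effect between IBET and vehicle was not called for either (adjusted p = 0.99 for both). The other copies were low: chrd.1.L summed to 78 counts in the Wnt/Chrd IBET libraries and 2 in the uninjected ones, a ratio of 38.2 (95% counting interval 10.2 to 321).

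Wnt feedback genes and direct targets made up the largest part of what was called with IBET. Of 76 tested genes on the list, 6 were called higher and none lower, against 0.062% and 0% of all genes. In the blocked fit 27 were higher and 2 lower, against 0.625% higher and 0.11% lower of all genes, and the 2 lower were both copies of bambi, which is also a BMP target. The median log2 fold change was 0.789 with IBET and 1.69 with vehicle, beside -0.0119 and 0.0358 over all genes tested. Sp5 and sp5l encode zinc finger repressors that beta-catenin activates directly. sp5l.L had 858, 838 and 778 CPM in Wnt/Chrd IBET explants, against 26.2, 21.6 and 42.2 CPM in uninjected IBET explants (4.78 ± 0.34, adjusted p = 0.0045). With vehicle it had 64.1, 215 and 232 CPM in Wnt/Chrd explants, against 3.35, 15.2 and 7.71 CPM in uninjected explants (4.21 ± 0.69), and the difference between the treatments was not called (0.50 ± 0.74). sp5l.S had 92.6, 130 and 170 CPM, against 0.52, 2.00 and 1.44 CPM (6.62 ± 0.57, adjusted p = 0.015).

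The pair sp5.S and sp5.L behaved less alike. sp5.S had 20.9, 12.35 and 9.61 CPM in Wnt/Chrd IBET explants and no read in the 3 uninjected IBET libraries, which makes it at least 290-fold higher (floor of 3 counts over the group, adjusted p = 0.031). In Wnt/Chrd vehicle explants it reached 176, 128 and 101 CPM, again with no read in uninjected explants (at least 2890-fold). sp5.L had 158, 141 and 204 CPM, against 2.94, 3.53 and 15.5 CPM in uninjected IBET explants (4.50 ± 0.70, adjusted p = 0.17, blocked adjusted p = 6.7e-04). Its fold was smaller with IBET than with vehicle (difference -6.18 ± 1.03, adjusted p = 0.013), and uninjected explants held 0 to 0.24 CPM with vehicle.

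Axin2, a scaffold of the complex that destroys beta-catenin, had nearly the same fold with and without IBET in its .S and .L copies. axin2.S was at 519, 465 and 245 CPM in Wnt/Chrd IBET explants, against 34.0, 11.5 and 19.8 CPM in uninjected IBET explants (4.24 ± 0.49, adjusted p = 0.039), and at 477, 399 and 219 CPM against 16.1, 11.8 and 17.5 CPM with vehicle (4.55 ± 0.40). The difference of -0.36 ± 0.59 was not called. axin2.L was at 339, 155 and 103 CPM against 9.46, 1.95 and 5.51 CPM with IBET (5.14 ± 0.71, adjusted p = 0.097, blocked adjusted p = 4.7e-04). A further gene provisionally annotated as axin2, LOC108701205, was also higher in Wnt/Chrd explants in both treatments, but its folds were unequal. Its fold was 4.77 ± 0.90 with IBET (adjusted p = 0.34, blocked adjusted p = 0.044) and 10.25 ± 1.09 with vehicle. The difference of -5.50 ± 1.36 was called only in the blocked fit (adjusted p = 0.062, blocked adjusted p = 0.026). Kremen2, a co-receptor for the Dkk class of Wnt inhibitors, was called for its .L copy only: kremen2.L had 73.0, 51.5 and 48.3 CPM, against 1.67, 2.00 and 3.45 CPM (4.59 ± 0.42, adjusted p = 0.015), while kremen2.S had 1.86, 5.32 and 6.74 CPM, against 0.81, 5.74 and 5.18 CPM (0.25 ± 0.73, adjusted p = 1). The Wnt receptor gene fzd10.L had 124, 185 and 88.8 CPM, against 21.0, 12.44 and 14.6 CPM (3.05 ± 0.37, adjusted p = 0.0498), close to the threshold. The secreted inhibitor dkk1.S was spread more widely, 66.5, 7.77 and 19.9 CPM against 0.29, 0.36 and 0.78 CPM (5.99 ± 0.92, adjusted p = 0.16, blocked adjusted p = 0.0027). The groups did not overlap for any of these genes except kremen2.S.

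Posterior neural and hindbrain genes formed the second group. Hoxd1 is an anterior Hox gene that responds to Wnt and retinoic acid, and both copies were called. hoxd1.L had 230, 81.2 and 40.9 CPM in Wnt/Chrd IBET explants, against 0.23, 0.15 and 0.25 CPM in uninjected IBET explants (9.07 ± 0.84, adjusted p = 0.015). hoxd1.S had 181, 90.2 and 21.7 CPM, against 2 counts in all in the uninjected IBET libraries, a ratio of 2930 (95% counting interval 810 to 24200, adjusted p = 0.031). Both were spread more widely in Wnt/Chrd vehicle explants, where hoxd1.L had 8.13, 78.6 and 2.04 CPM. Irx3 is an Iroquois factor of the posterior neural plate. irx3.L had 68.6, 21.4 and 32.5 CPM, against 0, 0 and 0.25 CPM (8.67 ± 1.01, adjusted p = 0.039), and irx3.S 52.6, 18.9 and 14.9 CPM, against 0, 0.26 and 0.08 CPM (7.91 ± 0.92, adjusted p = 0.039). Their differences between IBET and vehicle were -0.52 ± 1.88 and -0.49 ± 1.18 (adjusted p = 1 for both).

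In the blocked fit, 8 of 21 tested midbrain and hindbrain genes were called, 6 higher (both copies of irx3, gbx2.1 and meis3) and 2 lower (both copies of mafb, which patterns the hindbrain), against 0.625% higher and 0.11% lower of all genes. With vehicle neither copy of meis3 was called (meis3.L 0.58 ± 0.68, adjusted p = 0.68, and meis3.S -0.03 ± 0.39, adjusted p = 0.98). Their rise with IBET is therefore not an effect also seen with vehicle. Gbx2 marks the anterior hindbrain and its border with the midbrain. gbx2.1.L had 50.2, 6.55 and 3.83 CPM, against 0.69, 0.15 and 0.90 CPM with IBET (5.08 ± 1.14, adjusted p = 0.57, blocked adjusted p = 0.033). Of 29 caudal genes in the tables, only 10 had enough reads to be tested with IBET. Some, such as tbxt.S with 0.10 to 0.23 CPM in uninjected IBET explants, passed the read filter through the Wnt/Chrd libraries. Positive folds are thus partly built into the choice of genes tested. All 10 tested genes had a positive fold change, with a median of 2.96 (2.11 with vehicle). None was called unblocked (0.062% of all genes) and 3 were called higher in the blocked fit: cdx1.S, cdx2.S and tbxt.S (0.625% of all genes). The caudal factor cdx2.S had 4.24, 29.9 and 2.87 CPM, against 0.58, 0.36 and 0.21 CPM (5.02 ± 1.03, adjusted p = 0.46, blocked adjusted p = 0.015). Of 63 Hox genes in the tables only 10 were expressed well enough to be tested with IBET, and 2 were called, hoxd1.L and hoxd1.S, against 0.062% of all genes.

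Neural progenitor genes were high in both IBET groups. Of 51 tested, 42 had a positive fold change, with a median of 1.18 (2.12 with vehicle). The 2 copies of irx3 were called unblocked, against 0.062% of all genes, and 6 genes were called higher in the blocked fit, against 0.625% of all genes. Summed over the list, the level was 2450 to 3430 CPM in Wnt/Chrd IBET explants and 2200 to 2490 CPM in uninjected IBET explants, against 1200 to 2380 CPM in Wnt/Chrd vehicle explants and 345 to 500 CPM in uninjected vehicle explants. sox11.L, a pan-neural SoxC factor, shows this: it had 384, 534 and 264 CPM in Wnt/Chrd IBET explants, against 482, 336 and 360 CPM in uninjected IBET explants (0.01 ± 0.29, adjusted p = 1), and 88.6, 146 and 98.3 CPM in Wnt/Chrd vehicle explants, against 7.25, 16.1 and 11.8 CPM in uninjected vehicle explants (3.19 ± 0.35, adjusted p = 0.0046). The groups overlapped with IBET and did not with vehicle, and the difference was -3.24 ± 0.50 (adjusted p = 0.0086). The neural factor olig4.L rose within letters, with 9.43, 16.03 and 15.4 CPM, against 0.58, 1.79 and 0.90 CPM (3.64 ± 0.52, adjusted p = 0.11, blocked adjusted p = 9.0e-04). The LIM factor lhx5.S of the forebrain had 209, 121 and 147 CPM, against 67.6, 20.8 and 32.4 CPM (2.0 ± 0.46, adjusted p = 0.59, blocked adjusted p = 0.0021), whereas the forebrain and eye field list as a whole (16 tested) had a median of -0.318.

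**Figure D2:**
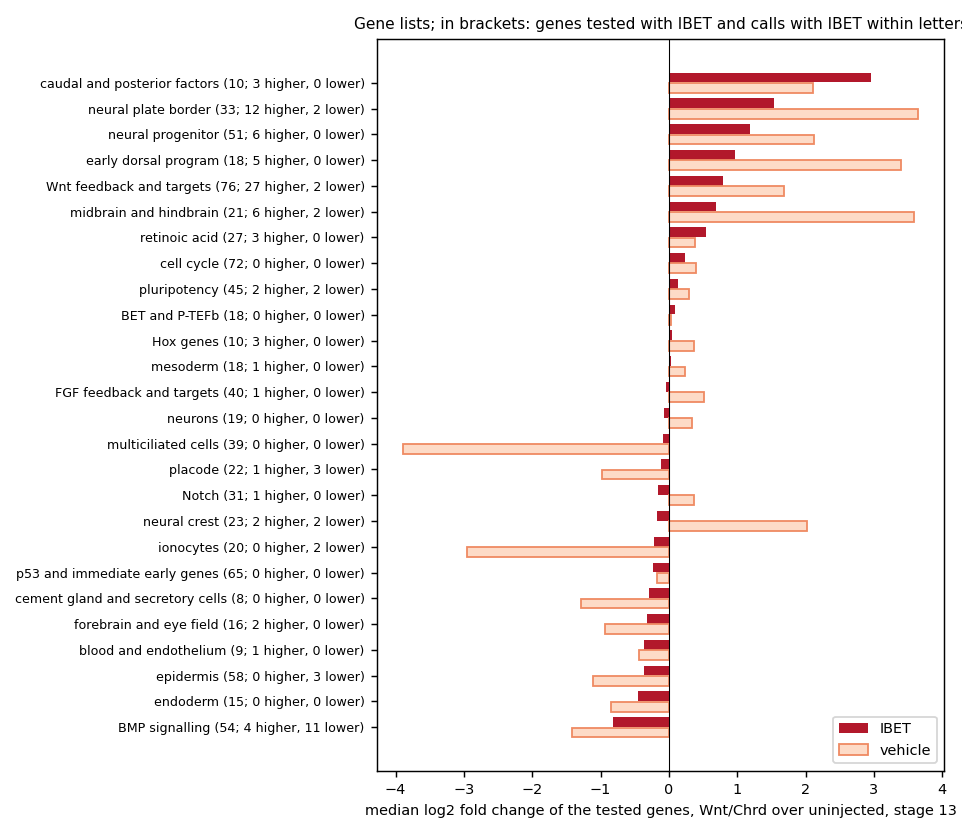
Median log2 fold change (horizontal axis, Wnt/Chrd over uninjected, stage 13) of the tested genes of each gene list except the injected mRNAs, with IBET (red bars) and with vehicle (pale bars), and in brackets the number of genes tested with IBET and the blocked IBET calls. Without the Wnt/Chrd vehicle library a the vehicle median of the forebrain and eye field list is 1.95, against -0.94 with it. Caudal genes, of which 10 of 29 had enough reads to be tested, have the highest IBET median plotted (2.96). BMP signalling genes have the lowest (-0.814), and multiciliated cell genes have -0.0911 with IBET, against -3.89 with vehicle.

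Of 33 tested genes on the neural plate border list, 12 were called higher and 2 lower with IBET in the blocked fit, against 0.625% and 0.11% of all genes. None was called unblocked (0.062% of all genes), and the median was 1.54 (3.65 with vehicle). The paired-box factor pax3.L had 39.0, 4.26 and 7.98 CPM in Wnt/Chrd IBET explants, against 0.06, 0.56 and 0.41 CPM in uninjected IBET explants (5.58 ± 1.06, adjusted p = 0.35, blocked adjusted p = 0.031). pax3.S had 49.2, 8.68 and 8.55 CPM, against 1.5, 1.33 and 1.19 CPM (4.04 ± 0.77, adjusted p = 0.35, blocked adjusted p = 0.011). Library a was the highest Wnt/Chrd library for both copies, and the groups did not overlap. With vehicle pax3.S reached 91.2, 333 and 271 CPM, against 0.38, 0.29 and 0.05 CPM, and its difference of -5.80 ± 1.11 was called (adjusted p = 0.021). msx1.L, a homeobox gene of the border that is also a BMP target, had 205, 202 and 119 CPM, against 27.0, 20.7 and 51.1 CPM (2.4 ± 0.42, adjusted p = 0.28, blocked adjusted p = 0.022).

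For zic1.S the change lay mainly in the uninjected explants. It had 782, 517 and 374 CPM in Wnt/Chrd IBET explants, against 232, 222 and 191 CPM in uninjected IBET explants (1.38 ± 0.29, adjusted p = 0.52, blocked adjusted p = 0.015). With vehicle it had 58.5, 346 and 293 CPM, against 0.50, 1.95 and 0.80 CPM (7.65 ± 0.88, adjusted p = 0.0051). The fold was thus smaller with IBET (difference -6.37 ± 0.88, adjusted p = 0.0055), while every Wnt/Chrd IBET library was above every Wnt/Chrd vehicle library, a contrast that was not tested.

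Neural crest genes gave no unblocked call with IBET, where only 0.062% of all genes were called. Only 23 of 50 crest genes in the tables were tested with IBET (33 with vehicle), and the median was -0.175 with IBET and 2.02 with vehicle. With vehicle 15 were called higher and none lower, against 4.4% and 7.58% of all genes. Without the Wnt/Chrd vehicle library a these were 13 higher and 2 lower of 34 tested, with a median of 0.943. In the blocked fit with IBET 2 were higher, both copies of snai1, and 2 lower, both copies of id3, against 0.625% and 0.11% of all genes. snai1.L, a zinc finger repressor of the early crest, had 49.7, 7.19 and 6.26 CPM in Wnt/Chrd IBET explants, against 0.69, 0.51 and 0.74 CPM in uninjected IBET explants (5.0 ± 0.92, adjusted p = 0.32, blocked adjusted p = 0.0091), and 105, 186 and 146 CPM, against 0.50, 0.24 and 0.27 CPM with vehicle (8.64 ± 0.42, adjusted p = 7.0e-04). Library a was again the highest with IBET. The difference, -3.71 ± 1.05, was called only in the blocked fit (adjusted p = 0.10, blocked adjusted p = 0.046). snai1.S had a fold of 3.28 ± 0.71 with IBET (253, 52.8 and 88.2 CPM, against 10.7, 6.25 and 23.3 CPM, adjusted p = 0.53, blocked adjusted p = 0.018) and 3.36 ± 0.64 with vehicle. The difference of -0.15 ± 0.96 was not called, and its SE leaves room for unequal folds. In the blocked fits the folds were 3.17 and 3.71, and the difference of -0.76 was not called (blocked adjusted p = 0.79).

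**Figure D3:**
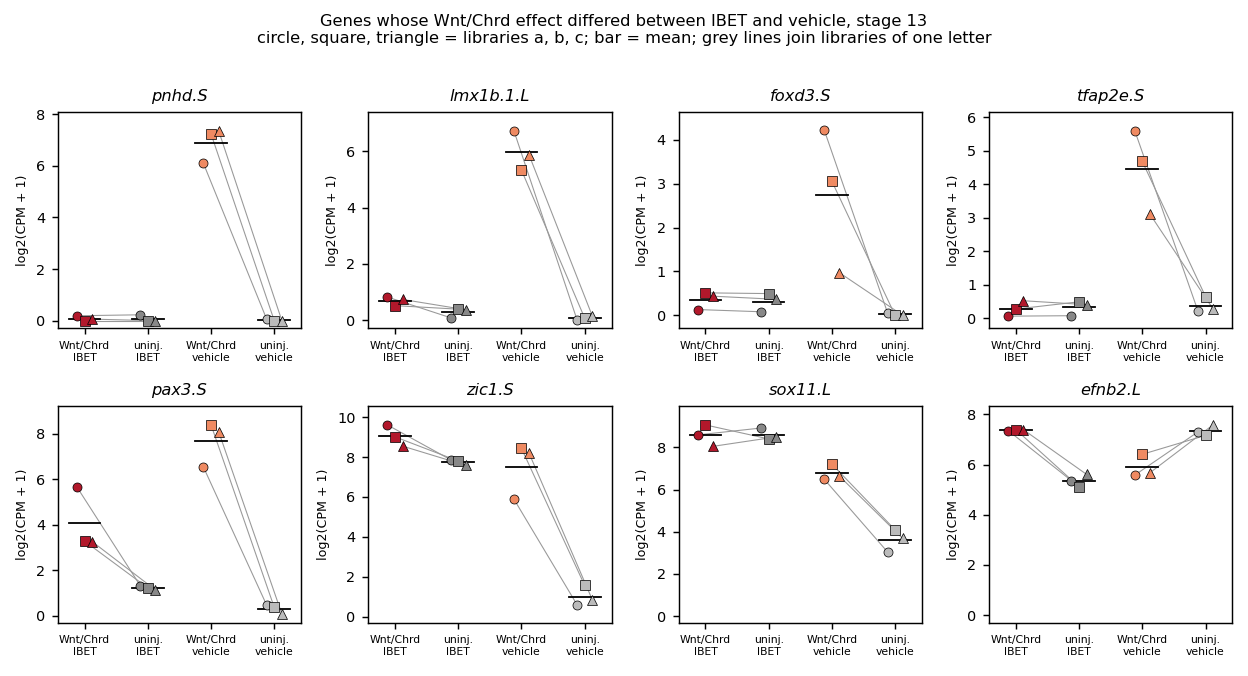
Levels of 8 genes whose Wnt/Chrd effect differed between IBET and vehicle, as log2(CPM + 1) in the 4 stage 13 groups (3 libraries each, bar = mean). pnhd.S, lmx1b.1.L, foxd3.S and tfap2e.S stay below 1 CPM in all 6 IBET libraries, sox11.L and zic1.S are high in both IBET groups, and efnb2.L is higher in Wnt/Chrd explants with IBET (162 to 167 CPM against 33.6 to 47.6 CPM) and lower with vehicle (46.7 to 83.9 CPM against 142 to 191 CPM).

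Some genes of the pathway that Chordin blocks were called lower with IBET in the blocked fit. Of 54 tested BMP signalling genes, the unblocked fit called 1, nog.S (0.062% of all genes), and the blocked fit called 11 lower and 4 higher, against 0.11% lower and 0.625% higher of all genes. The median was -0.814 with IBET and -1.42 with vehicle, beside -0.0119 and 0.0358 over all genes. The 11 were bambi.L, bambi.S, id2.L, id2.S, id3.L, id3.S, dlx3.S, gata2.S, id4.S, smad6.L and smad7.S. The 4 higher were nog.S, msx1.L and both copies of msx2. Id proteins are inhibitors of basic helix-loop-helix factors and direct targets of BMP Smads. id2.L had 132, 133 and 156 CPM in Wnt/Chrd IBET explants, against 562, 394 and 452 CPM in uninjected IBET explants (-1.74 ± 0.24). Its adjusted p of 0.097 was the smallest of any gene that was lower with IBET, and the blocked p was 0.0020. With vehicle it had 36.6, 94.9 and 95.7 CPM, against 160, 193 and 178 CPM (-1.31 ± 0.33, adjusted p = 0.049), and the difference of -0.52 ± 0.45 was not called. id2.S had 31.9, 44.6 and 50.4 CPM, against 67.3, 107 and 206 CPM with IBET (-1.59 ± 0.44, adjusted p = 0.99, blocked adjusted p = 0.022), and 31.2, 39.0 and 29.6 CPM, against 433, 419 and 395 CPM with vehicle. The groups did not overlap for either copy in either treatment.

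Id3 behaved otherwise. id3.L had 459, 83.3 and 144 CPM in Wnt/Chrd IBET explants, against 1022, 495 and 689 CPM in uninjected IBET explants (-1.68 ± 0.60, adjusted p = 1, blocked adjusted p = 0.011). With vehicle it had 235, 373 and 495 CPM, against 281, 296 and 324 CPM (0.22 ± 0.25, adjusted p = 0.66), and the groups overlapped. The difference of -1.98 ± 0.73 was not called (adjusted p = 0.25). bambi.L, a pseudoreceptor that dampens BMP signalling, had 15.96, 10.8 and 16.1 CPM, against 184, 25.7 and 176 CPM with IBET (-3.16 ± 0.68, adjusted p = 0.53, blocked adjusted p = 0.025), nearly the fold of -3.09 ± 0.51 with vehicle. Uninjected IBET library b was the low one for bambi, and likewise for dlx3.S, gata2.S and foxi4.2.S.

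Noggin, like Chordin an organizer antagonist of BMP ligands, was one of the 13. nog.S had 12, 11.8 and 9.21 CPM in Wnt/Chrd IBET explants, against 1.39, 1.07 and 1.31 CPM in uninjected IBET explants (3.13 ± 0.36, adjusted p = 0.039). With vehicle it had 4.92, 8.34 and 4.67 CPM, against 1 count over the 3 uninjected libraries, a ratio of 369 (95% counting interval 65.8 to 14600). The difference was called (-4.98 ± 0.83, adjusted p = 0.012), with every IBET library above every vehicle library of the same injection, a contrast that was not tested. nog.L had 3.86, 1.92 and 2.73 CPM, against 1.27, 0.46 and 1.15 CPM with IBET (1.56 ± 0.53, adjusted p = 1).

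**Figure D4:**
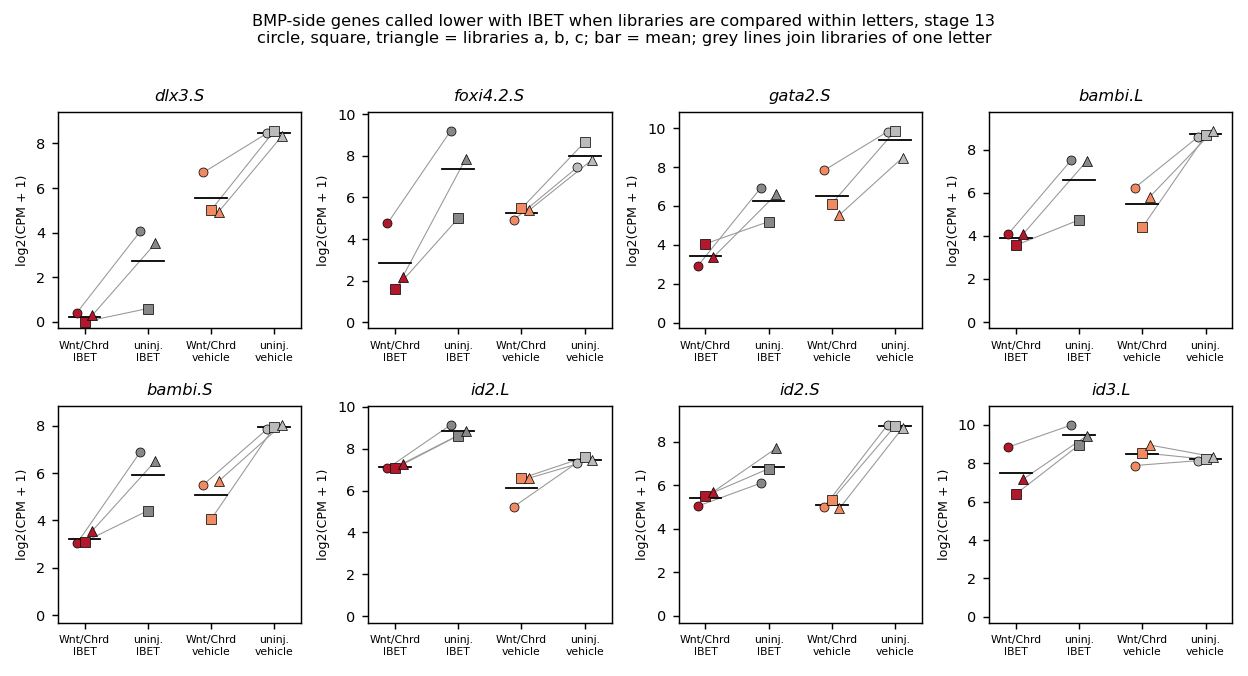
Levels of 8 genes on the BMP side that were called lower with IBET in the blocked fit, as log2(CPM + 1) in the 4 stage 13 groups (3 libraries each, bar = mean, grey lines join libraries of one letter). Each grey line between the IBET groups climbs from the Wnt/Chrd to the uninjected library, with the shortest climb for letter b in dlx3.S, gata2.S and bambi, and id3.L is level with vehicle (235 to 495 CPM against 281 to 324 CPM).

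On the epidermis list (58 tested) no gene was called unblocked with IBET (0.062% of all genes), and 3 were called lower in the blocked fit, dlx3.S, gata2.S and trim29.L, against 0.11% of all genes. The median was -0.369 with IBET and -1.11 with vehicle, where 13 of 68 were called lower and 40 of 70 without the Wnt/Chrd vehicle library a (7.58% and 13.4% of all genes). The homeobox gene dlx3.S, which BMP activates in non-neural ectoderm, had 0.33, 0 and 0.22 CPM in Wnt/Chrd IBET explants, against 15.6, 0.51 and 10.5 CPM in uninjected IBET explants (-5.50 ± 1.31, adjusted p = 0.66, blocked adjusted p = 4.9e-04), and 103, 31.2 and 29.6 CPM, against 349, 379 and 321 CPM with vehicle. gata2.S, a GATA factor of the ventral ectoderm, had 6.58, 15.6 and 9.21 CPM, against 122, 35.6 and 96.0 CPM (-3.02 ± 0.54, adjusted p = 0.29, blocked adjusted p = 0.044). The forkhead gene foxi4.2.S, on the ionocyte list, had 25.9, 2.02 and 3.53 CPM, against 588, 30.9 and 233 CPM (-4.75 ± 1.28, adjusted p = 0.96, blocked adjusted p = 5.9e-04). The groups did not overlap, but uninjected library b lay only just above Wnt/Chrd library a. The summed level of the epidermis list was 9660 to 10700 CPM in Wnt/Chrd IBET explants and 8630 to 15100 CPM in uninjected IBET explants, against 20700 to 56000 CPM and 55000 to 84100 CPM in the vehicle groups.

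Differentiated epidermal cell types gave few or no calls with IBET. Of 39 tested genes of multiciliated cells none was called in either fit and the median was -0.0911, while with vehicle 27 of 50 were called lower, against 7.58% of all genes with vehicle and 0% with IBET, and the median was -3.89. Without the Wnt/Chrd vehicle library a 38 of 50 were called lower, against 13.4% of all genes. foxj1.L, the master regulator of motile cilia, had 0.19, 0.59 and 0.62 CPM in Wnt/Chrd IBET explants, against 0.52, 0.41 and 0.86 CPM in uninjected IBET explants, and 3.13, 0.67 and 0.04 CPM, against 66.4, 126 and 92.1 CPM with vehicle (difference 5.81 ± 1.30, adjusted p = 0.040). Of 20 tested ionocyte genes none was called unblocked (0.062% of all genes) and 2 were lower in the blocked fit, both copies of foxi4.2, against 0.11% of all genes, and the median was -0.225. With vehicle the median was -2.95 and 18 of 32 were called lower, and without the Wnt/Chrd vehicle library a -4.64 and 25 of 34. Summed over the list, multiciliated cell genes were at 355 to 444 CPM in Wnt/Chrd IBET explants and 377 to 464 CPM in uninjected IBET explants, against 448 to 532 CPM and 3140 to 4860 CPM with vehicle. In bulk libraries, fewer cells of a type and less RNA per cell cannot be told apart.

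The difference of the Wnt/Chrd effect between IBET and vehicle, tested as an interaction over the 12 stage 13 libraries, was called for 524 of 23393 genes (2.24%), 421 positive (1.8%) and 103 negative (0.44%), and for 774 (3.31%) and 223 (0.953%) with the letter as a block. It was called for 920 genes without the Wnt/Chrd vehicle library a, 261 and 247 without b or c of that group, and 189, 445 and 191 without uninjected vehicle library a, b or c. Without Wnt/Chrd IBET library a, b or c it was called for 525, 299 and 223 genes, and without uninjected IBET library a, b or c for 287, 260 and 224. Most of these differences were effects that were smaller with IBET. Of the 353 positive genes tested in both treatments, 349 had the smaller fold with IBET, with medians of -0.0462 with IBET and -3.6 with vehicle. Of the 85 negative genes, 85 did, with medians of 0.48 and 4.36. The 353 and 85 genes were chosen by the difference itself, so a gap between their IBET and vehicle medians is built into the choice. Over the genes called higher with vehicle and tested with IBET (787), 713 (90.6%) kept their sign and the median log2 fold change was 0.627 with IBET and 2.06 with vehicle. Over those called lower (1145), 806 (70.4%) kept it, with medians of -0.208 and -2.5. These genes were chosen by their vehicle calls, so the vehicle medians describe the choice.

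**Figure D5:**
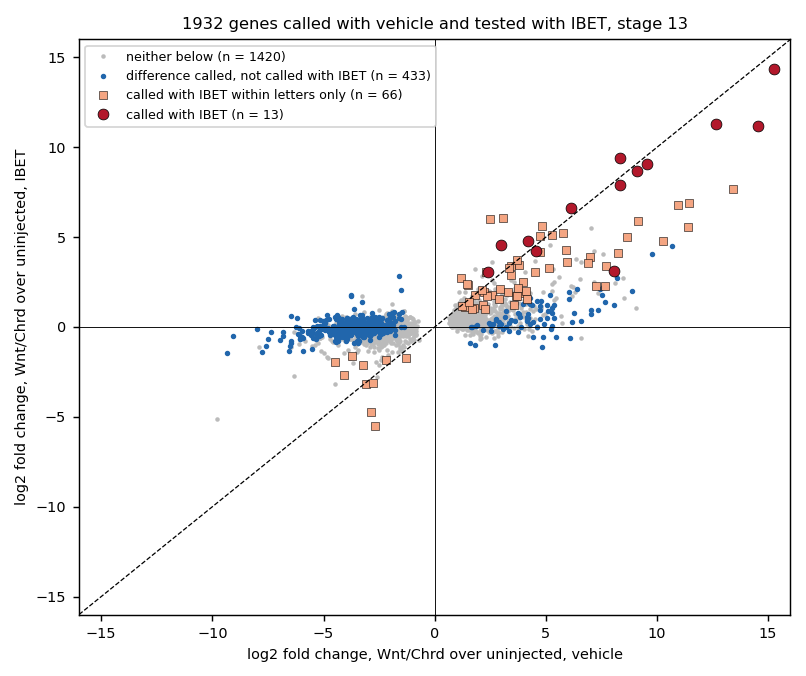
Fitted log2 fold change (Wnt/Chrd over uninjected, stage 13) with vehicle on the horizontal and with IBET on the vertical axis for the 1932 genes called with vehicle and tested with IBET, with the dashed line of equal effect. The 13 genes called with IBET lie in the upper right, 433 genes had a called difference and no call with IBET, 66 further genes were called with IBET only in the blocked fit, and 1420 had none of these.

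Several genes that Wnt/Chrd raised with vehicle were barely detected in either IBET group. Pinhead (pnhd), a secreted factor induced by Wnt, had the lowest difference of all genes called. pnhd.S had 67.1, 150 and 163 CPM in Wnt/Chrd vehicle explants, against 1 count in uninjected vehicle explants, but only 4 counts in the 3 Wnt/Chrd IBET libraries, against 3 in the uninjected IBET libraries (difference -12.22 ± 2.35, adjusted p = 0.022). Its copy pnhd.L still had 11.9, 0.53 and 1.498 CPM in Wnt/Chrd IBET explants, against 1 count in uninjected IBET explants, a ratio of 287 (95% counting interval 51.1 to 11400, blocked adjusted p = 0.0077), and 368, 378 and 510 CPM in Wnt/Chrd vehicle explants. lmx1b.1.L, a LIM homeobox gene, had 0.76, 0.43 and 0.66 CPM, against 0.06, 0.31 and 0.29 CPM with IBET, and 105, 39.2 and 57.5 CPM in Wnt/Chrd vehicle explants, against 3 counts in the uninjected ones (difference -8.85 ± 1.03, adjusted p = 0.0031). The crest specifier foxd3.S had 17.6, 7.305 and 0.96 CPM in Wnt/Chrd vehicle explants, against 1 count in uninjected ones (difference -8.48 ± 1.71, adjusted p = 0.027). tfap2e.S had 0.05, 0.21 and 0.44 CPM, against 0.06, 0.41 and 0.33 CPM with IBET, and 47.5, 24.6 and 7.63 CPM, against 0.17, 0.57 and 0.21 CPM with vehicle (difference -6.56 ± 1.26, adjusted p = 0.021). The retinoic acid degrading enzyme gene cyp26c1.L and the water channel gene aqp3.L had differences of -8.77 ± 1.31 and -9.92 ± 1.29 (adjusted p = 0.0080 and 0.0046).

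Among the positive differences were genes that Wnt/Chrd lowered with vehicle and that were near 0 in both IBET groups. tbx3.S, a T-box gene, had 0.24, 0.59 and 0.35 CPM in Wnt/Chrd IBET explants, against 1.27, 0.41 and 1.52 CPM in uninjected IBET explants, and 0.40, 0.21 and 0.25 CPM, against 233, 185 and 131 CPM with vehicle (difference 7.83 ± 0.74, adjusted p = 0.0017). dmrt2.S had 124, 14.96 and 108 CPM in uninjected vehicle explants and at most 0.48 CPM in any IBET library (difference 9.24 ± 1.37, adjusted p = 0.0080).

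A few genes were called in opposite directions in the treatments. In the blocked fits, 5 genes called lower with vehicle were called higher with IBET (efnb2.L, hunk.L, kit.L, kit.S and lmo4.2.S), and 1 called higher with vehicle was called lower with IBET (LOC100158389). All but efnb2.L were taken up after their values were seen. efnb2.L, which encodes the ligand ephrin-B2, had 162, 167 and 166 CPM in Wnt/Chrd IBET explants, against 39.9, 33.6 and 47.6 CPM in uninjected IBET explants (2.03 ± 0.26, adjusted p = 0.063, blocked adjusted p = 0.0010). With vehicle it had 46.7, 83.9 and 49.9 CPM, against 156, 142 and 191 CPM (-1.51 ± 0.26, adjusted p = 0.016). The groups did not overlap in either treatment and the difference was called (3.47 ± 0.39, adjusted p = 0.0031). efnb2.S did not share the pattern, with 260, 316 and 298 CPM, against 196, 148 and 196 CPM with IBET, and 114, 63.4 and 36.3 CPM, against 43.4, 57.6 and 56.1 CPM with vehicle.

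Before IBET was added, at stage 9, 5 of 20482 genes (0.0244%) were called, all higher in Wnt/Chrd explants: chrd.1.S, wnt8a.L, wnt8a.S, sia1.L, an early dorsal homeobox gene, and hbg1.L, annotated as a globin. The count was 4 without uninjected library a and 2 without any other single library, and the blocked fit called 465 genes (2.27%), 360 higher (1.76%) and 105 lower (0.513%). Of the 13 stage 13 genes, 8 were tested at stage 9, 7 had the same sign and 2 were called. wnt8a.L had 2722, 3658 and 4115 CPM in stage 9 Wnt/Chrd explants, against 0.28, 0.16 and 0.14 CPM in uninjected explants. The Wnt target sp5l.L already had 67.8, 39.0 and 147 CPM, against 28.8, 10.5 and 38.5 CPM (1.71, adjusted p = 1, blocked adjusted p = 3.5e-07). The Wnt target axin2.S was not raised, with 65.9, 66.5 and 79.4 CPM, against 76.1, 70.25 and 83.0 CPM (-0.11). hoxd1.L had 1.21, 1.29 and 3.07 CPM, against 0.11, 0 and 0.21 CPM (4.11, called only in the blocked fit, adjusted p = 2.2e-04). irx3.L and hoxd1.S were at 1.17 CPM or less in all 6 stage 9 libraries.

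At stage 17, still in IBET, 44 genes were called higher and 3 lower of 20869 tested (0.225%), and 198 (0.949%), 140 higher (0.671%) and 58 lower (0.278%), with the letter as a block. All 13 genes had the same sign and 11 were called, the exceptions being sp5l.L and sp5l.S (adjusted p = 0.11 and 0.14). Of the 131 blocked rises at stage 13, 130 were tested at stage 17, 127 had the same sign and 67 were called in the blocked fit. Of the 23 blocked falls, 20 had the same sign and 8 were called. The border gene pax3.L had 236, 101 and 218 CPM in Wnt/Chrd IBET explants at stage 17, against 0.04, 0.49 and 0.29 CPM in uninjected ones (9.47, adjusted p = 0.0034), and snai1.L had 106, 80.7 and 92.7 CPM, against 1.48, 8.25 and 3.62 CPM (4.40, adjusted p = 0.043). The 3 falls were foxi4.2.L, foxi4.2.S and bambi.S. foxi4.2.S had 1.18, 1.68 and 3.79 CPM, against 549, 123 and 344 CPM (-7.25, adjusted p = 0.014). foxd3.S and snai2.L remained at or under 1.11 CPM in the Wnt/Chrd IBET explants. The stage 17 count was 7 without uninjected library c, 329 without uninjected library b, 34 without uninjected library a, and 25, 24 and 23 without Wnt/Chrd library a, b or c. In that uninjected group krt12.4.L had 541, 0.27 and 23.4 CPM in libraries a, b and c.

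On the list of the early dorsal program of the organizer (18 tested), chrd.1.S and nog.S were called, against 0.062% of all genes, 5 genes were higher in the blocked fit, against 0.625% of all genes, and the median was 0.97 (3.39 with vehicle). The remaining lists gave no unblocked call with IBET, where only 0.062% of all genes were called. Genes of FGF feedback, Notch, pluripotency, placode, cement gland, neurons, mesoderm, endoderm, retinoic acid, cell cycle, p53 and immediate early genes, BET proteins with P-TEFb, and blood and endothelium had IBET medians between -0.446 (endoderm) and 0.545 (retinoic acid). Their blocked calls came to 3 at most in one direction for any of these lists, where 0.625% of all genes were higher and 0.11% lower. Of 22 tested placode genes 3 were lower and 1 higher in the blocked fit, against 0.11% and 0.625% of all genes. Of 27 tested retinoic acid genes 3 were higher in the blocked fit, both copies of meis3 and rarg.L, against 0.625% of all genes. meis3.L, a cofactor of Hox proteins, had 646, 16.7 and 46.2 CPM in Wnt/Chrd IBET explants, against 8.48, 1.18 and 8.02 CPM in uninjected IBET explants (5.32 ± 1.45, adjusted p = 0.97, blocked adjusted p = 0.026). Library a was far above the others, as for pax3 and snai1.L. With vehicle meis3.L had 131, 198 and 28.5 CPM in Wnt/Chrd explants, against 114, 42.3 and 71.7 CPM in uninjected explants. That fold of 0.58 ± 0.68 was not called (adjusted p = 0.68), nor was the difference of 4.68 ± 1.64 (adjusted p = 0.21). The list medians were the same with genes of 0 to 3 counts in a group set to their counting bound.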

How the data were processed

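RNA-seq libraries of 24 explant samples were used, 3 in each of 8 groups. Per the submitters' processing notes the authors used fastp (0.23.2), STAR (2.6.0), HTSeq (1.99.2) and DESeq, and deposited raw read counts per gene, against genome build 9.2 by the study's methods. The annotation version and strand setting are not given in the sources used here. The deposited counts were used as they stand. Rows for unassigned reads were left out of library sizes. No column of per-sample values in the tables read was left unused. Libraries of a group were no repeats of one another (chi-square per degree of freedom at least 26.6).

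Each comparison was fitted in edgeR (4.0.16, R 4.3.3, limma 3.58.1) with its quasi-likelihood test after filterByExpr (minimum count 10, minimum total 15) and TMM scaling, p-values adjusted by Benjamini-Hochberg over all genes tested. SE is the log2 fold change divided by the square root of F. An exact permutation test of 3 against 3 cannot go below p = 0.1. Counting intervals are 95% exact and cover counting error only. The fits were also run on simulated counts with a fixed dispersion for all genes and a letter effect only in the blocked case. The real libraries deviate together by letter, so that run checks the code and not the error rate of the unblocked calls.

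The count columns carry letters, not the replicate numbers of the titles, so columns were matched to groups only. Deviations from the group means of same-letter libraries correlated at 0.610 to 0.686 with IBET at stage 13 and at 0.553 to 0.869 in the other pairs of groups, and of different letters at -0.546 to 0.102, so the letters were taken to pair the libraries and the blocked fit is given beside the unblocked one. Genes named were every copy of wnt8a and chrd, the 15 largest rises and 15 largest falls called with IBET whose groups do not overlap, up to 6 genes of each list by adjusted p, the 10 largest called differences each way, genes the study names, and their homeologous copies, with mean log2 CPM of at least 2 for the ranked rises, falls and differences. The genes id4.S, smad6.L, smad7.S, mafb.L, mafb.S, sia1.L, hunk.L, kit.L, kit.S, lmo4.2.S, LOC100158389 and LOC108701205 were named after their values were seen. Some genes are not reported here. Members and lists were chosen with earlier results of these data known. DESeq2 (1.42.0), other scalings, no filter, left-out libraries and a fit of all 12 stage 13 libraries were tried as alternatives.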

Additional observations from a re-analysis of the deposited data

Results flagged for a closer look

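The Wnt/Chrd effect at stage 13 differed between IBET and vehicle, by the interaction test, for 524 genes. Among those described above, the difference on the log2 scale (IBET minus vehicle) was -12.22 for pnhd.S, -9.92 for aqp3.L, -8.85 for lmx1b.1.L, -8.77 for cyp26c1.L, -8.48 for foxd3.S and -6.56 for tfap2e.S, all with little or no level in either IBET group. It was -6.37 for zic1.S, -3.24 for sox11.L, -4.98 for nog.S, -4.56 for nog.L and -6.18 for sp5.L, where uninjected IBET explants held more than uninjected vehicle explants, and -5.80 for pax3.S. It was 9.24 for dmrt2.S, 7.07 for dmrt2.L, 7.83 for tbx3.S and 5.81 for foxj1.L, which were near 0 in both IBET groups. For efnb2.L it was 3.47, with effects of opposite sign in the 2 treatments. Each of these differences passed the adjusted threshold in the interaction test with and without the letter as a block.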

How the results depend on the processing

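The 13 calls with IBET at stage 13 were 13 with DESeq2's size factors or library totals in edgeR, 20 in the fit of all 12 stage 13 libraries, 96 with no filter on low counts, 122 with DESeq2 and 154 with the replicate block. Leaving out libraries gave 2 to 266, the upper values from the replicate block with both libraries of a letter left out (182, 266 and 154 without a, b or c), an alternative chosen after seeing the data. With vehicle the 2479 calls were 4210 with DESeq2, 5212 with the replicate block and 737 to 4024 with a library left out. The 524 differences were 1305 with DESeq2, 811 with no filter, 997 with the replicate block and 189 to 920 with a library left out. At stage 9 the 5 calls were 22 with DESeq2, 465 with the replicate block and 2 to 4 with a library left out. At stage 17 the 47 calls were 573 with DESeq2, 278 with no filter, 198 with the replicate block and 7 to 329 with a library left out. The cause of these shifts was not tested. Of the 13 genes, chrd.1.S and sp5l.L were called in all 15 settings tried and the others in 9 to 12. Not every value given here was followed through the alternatives, so other small values may also turn sign. Among those that were followed, signs turned only for some that were not called. sox11.L with IBET was -0.0767 with library totals, -0.0351 with the replicate block and -0.38 to 0.21 with libraries left out. id3.L with vehicle was -0.0233 to 0.36, and the axin2.S difference -0.63 to 0.22. The other results for single genes were counted once for each followed value and each alternative, so 1 gene counts many times. Of these, 989 kept their side of the threshold, 175 passed it only under the alternative and 127 no longer did.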

Other observations

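The globin gene hbg1.L was detected together with the injected transcripts. At stage 9 it had 233, 311 and 330 CPM in Wnt/Chrd explants (20050 counts), against no read in the 3 uninjected libraries. At stage 13 with IBET it had 3.1, 5.32 and 15.9 CPM, against 0.12, 0.20 and 0.04 CPM in uninjected explants (6.07 ± 0.88, edgeR adjusted p = 0.12, blocked adjusted p = 0.0030), and at stage 17 with IBET 2.57, 4.18 and 6.99 CPM, against 0.04, 0.11 and 0.10 CPM. Library c was the highest Wnt/Chrd library at each of these times, as it was for chrd.1.S at stages 9 and 13. Whether the reads come from the injected material or from the embryo was not tested.

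The receptor gene kit.S, taken up after its values were seen, had 34.3, 11.7 and 15.9 CPM in Wnt/Chrd IBET explants, against 7.33, 3.79 and 7.44 CPM in uninjected IBET explants (1.74 ± 0.50). This rise was called only in the blocked fit (blocked adjusted p = 0.035). With vehicle it had 21.3, 29.2 and 48.6 CPM, against 452, 380 and 459 CPM (-3.78, adjusted p = 0.0029). Its difference was 5.44 (adjusted p = 0.0031). At stage 17 with IBET it was called higher in Wnt/Chrd explants in both fits (2.05, adjusted p = 0.016, blocked adjusted p = 0.0042).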
